A study of Mus musculus with 18 samples.

Results

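A set of 10 imprinted genes with roles in growth were followed in NIH/3T3 cells lacking the nuclear export receptor XPO4, out of 55401 genes in the mRNA-seq tables. They were taken by name and were H19, Igf2, Dlk1, Meg3, Peg3, Plagl1, Grb10, Cdkn1c, Igf2r and Mest. NIH/3T3 is a fibroblast line derived from mouse embryos. The mRNA-seq arm compared 3 libraries of wild-type (WT) cells with 3 of XPO4 knockout (KO) cells, and the circRNA-seq arm held 12 RNase R-treated libraries, 2 per genotype from the nucleus, the cytoplasm and whole cells. The KO cells were 1 line made with CRISPR-Cas9, in which both Xpo4 copies carried the same edit according to the methods, so what distinguishes this line from WT cells cannot be told apart from the loss of XPO4. No source says that the libraries of a genotype came from separate cultures, and the p-values below measure only the spread between these libraries.

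An imprinted gene is read mainly from the copy inherited from one parent, because DNA methylation placed in the egg or sperm marks a control region that the embryo keeps. Such genes lie in clusters, often with a long noncoding RNA read from one parental copy and protein-coding genes read from the other. Paternally expressed members such as Igf2 tend to promote fetal growth and maternally expressed ones such as Igf2r, Grb10 and Cdkn1c to restrain it. The counts analysed here do not separate the parental copies.

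Between 16974062 and 22057323 read pairs were counted per mRNA-seq library. In all 6 tables the column heading names the other genotype than the sample title. The titles were followed, and if the headings were right every difference between KO and WT in mRNA-seq would change sign. Xpo4 itself did not settle this, with 657, 614 and 685 read pairs in WT and 712, 504 and 687 in KO (log2 fold change 0.18 ± 0.11 SE, edgeR adjusted p = 0.193). KO replicate 2 stood apart from the others in how its reads were spread over long and short genes. In it, the median log2 deviation of genes with at least 8000 exonic bases minus that of genes with at most 2000 was -0.226, against -0.0660 to 0.143 in the other 5 libraries. Without it, Xpo4 was higher in KO (0.34 ± 0.07, adjusted p = 0.000252). All 13 fibroblast markers had at least 10 read pairs in every library, and their summed level was between 2946 and 3042 FPKM (read pairs scaled by exonic length and library total) in WT and between 2930 and 3027 in KO. Single markers did move, 6 up and 6 down, with Dcn 3.42-fold, Lum 2.99-fold and Prrx1 1.68-fold lower and Thy1 1.82-fold higher in KO. The extraction text in the labels speaks of blood samples. Of 12 blood markers, 5 were at 0 in all 6 libraries, the globins Hbb-bs, Hbb-bt and Hba-a2 among them, while the globin Hba-a1 had 0 read pairs in WT and 8, 7 and 6 in KO. The 3 blood markers that could be tested all passed, with Ptprc (log2 fold change -1.78 ± 0.20) and Cd68 (-0.71 ± 0.20) lower and Lyz2 higher in KO, the last from 3, 1 and 2 read pairs against 11, 10 and 13. Lyz2 passed the filter on low counts through its KO libraries alone. The blood list summed to between 4.07 and 6.01 FPKM in WT and between 3.47 and 4.33 in KO. The summed epithelial list was 2.67 to 2.96 FPKM in WT and 0.298 to 0.674 in KO, and Epcam, Krt18 and Cldn4 were at 0 in every library. Most of this sum came from Krt14, with 89, 91 and 112 read pairs in WT and 18, 9 and 8 in KO (-2.83 ± 0.28, edgeR adjusted p = 2.26e-06). Krt14 passed the filter on low counts through its WT libraries. The skeletal muscle list summed to 0.139 to 0.168 FPKM in WT and 0.179 to 0.342 in KO, with Myod1, Myf5 and Pax7 at 0. The endothelial list stayed at or below 0.327 FPKM, the pluripotent list at or below 0.359, and the neuronal list lay between 2.60 and 3.52. Of the 3 neuronal markers tested, 1 was higher and 2 were lower in KO. Tubb3 rose, with 0 read pairs in WT and 19, 37 and 22 in KO, and passed the filter on low counts through KO alone. Map2 (-0.82 ± 0.12) and Snap25 (-0.54 ± 0.13) fell. The part of any of these lists in the results below was not tested.

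Of the 10 genes, 8 had enough reads to be tested, and 7 of these differed between KO and WT cells (edgeR quasi-likelihood test, Benjamini-Hochberg adjustment over 14688 genes, threshold 0.05). Of all genes tested, 48.7% passed the same test, and of the 7265 genes with a mean count of at least 500, as 7 of the 8 have, 57.3% passed. H19, Grb10 and Plagl1 fell, and Igf2r, Meg3, Peg3 and Mest rose. After scaling, the KO and WT libraries did not overlap for these 7 genes, nor for 57.8% of all genes tested. Falls and rises over all genes made up 23.6% and 25.1% of those tested. Dlk1 did not pass the test, and Igf2 and Cdkn1c had too few reads. Mest passed the filter on low counts through its KO libraries alone. Together the 10 genes took between 0.735% and 0.801% of all counted read pairs per library, and Dlk1 alone took between 0.534% and 0.597%.

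Levels were scaled by the summed exon length of each gene, which can exceed the length of its transcripts. The WT levels ran from Dlk1 at 955 ± 20.1 FPKM (SD, n = 3) through Grb10 at 111 ± 1.61, H19 at 45.3 ± 1.65, Meg3 at 27.3 ± 1.49, Igf2r at 19.9 ± 1.48, Peg3 at 12.5 ± 0.985 and Plagl1 at 10.3 ± 0.828 to Mest at 0.107 ± 0.107, Igf2 at 0.0774 ± 0.0186 and Cdkn1c at 0. Dlk1 held rank 23 among all 55401 gene rows in WT and rank 17 in KO. In WT the libraries of neighbours in this order did not overlap, except those of Mest and Igf2. In KO, H19 moved from the third to the seventh place, and the 4 genes it passed, Meg3, Igf2r, Peg3 and Plagl1, each stood 1 place higher. None of the neighbouring genes in the KO order overlapped.

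**Figure D1:**
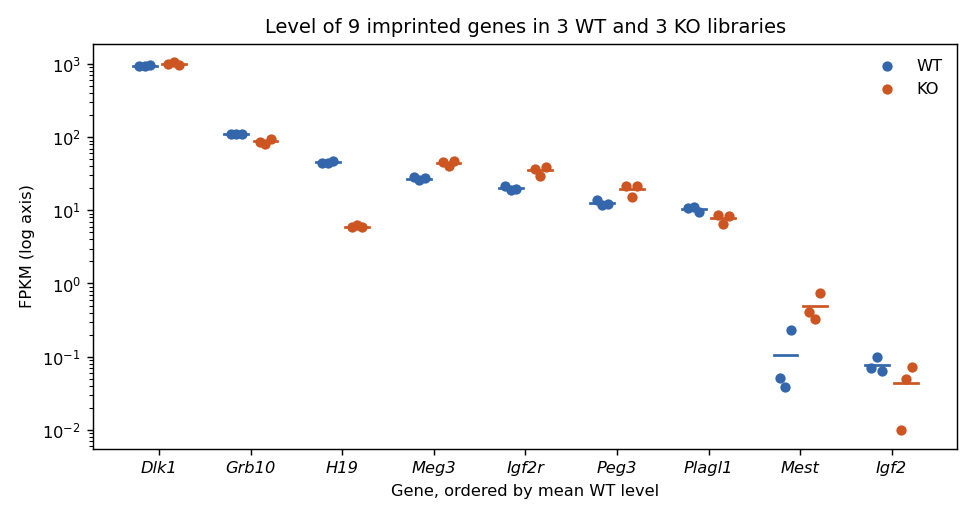
Level in FPKM (log axis) of 9 of the 10 genes in each library, with WT in blue and KO in orange, a point per library and a bar at the mean of 3. Cdkn1c had 0 reads in all 6 libraries and is not drawn. H19 sits near 45.3 in WT and near 6.0 in KO FPKM, while the Dlk1 points of both genotypes lie close together at the top.

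H19 and Igf2 lie beside each other on chromosome 7 and share enhancers, H19 being read from the maternal and Igf2 from the paternal copy. H19 makes a noncoding RNA that is abundant in the embryo and is also the precursor of miR-675. Igf2 makes insulin-like growth factor 2, the main fetal growth factor of the family. The mature sequences of miR-675 (RefSeq, GRCm38.p6) are shown as the small RNA product of the gene with the largest fall, with the seed, bases 2 to 8, in capitals. They lie at chr7:142577112-142577133 and chr7:142577078-142577099 on the minus strand, inside H19.
mmu-miR-675-5p: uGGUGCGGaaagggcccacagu
mmu-miR-675-3p: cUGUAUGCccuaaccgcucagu
The seeds differ from each other and from those of the other 7 mature miRNAs annotated inside these genes.

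H19 (ENSMUSG00000000031, chr7:142575529-142578143, minus strand, GRCm38) had 2146, 2161 and 2556 read pairs in the WT libraries and 256, 277 and 246 in the KO libraries. Every KO library lay far below every WT library. The fall was 7.55-fold (log2 fold change -2.92 ± 0.07 SE, edgeR adjusted p = 2.83e-12), and 76 of the 14688 genes tested had a lower log2 fold change. Igf2 (ENSMUSG00000048583, chr7:142650766-142666816, minus strand) was barely read, with 8, 11 and 8 read pairs in WT and 1, 5 and 7 in KO, or 0.0774 ± 0.0186 and 0.0435 ± 0.0315 FPKM. Scaled for depth, the groups of Igf2 overlapped. Without the filter on low counts its log2 fold change was -0.82 ± 0.66 (edgeR adjusted p = 0.411). Of the exonic bases of Igf2, 64.5% are shared with other annotated genes, and pairs falling there were not counted for it, so its level is a lower limit. Too few Igf2 reads were present for a ratio of H19 to Igf2 per library.

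Within 500 kb of H19, 13 other genes were tested, of which 6 fell and 4 rose, with a median log2 fold change of -1.0. The median over the 1122 other genes tested on chromosome 7 was -0.0151. The nearest called gene was the noncoding Gm33148, 13.6 kb away, with 50, 45 and 65 read pairs in WT and 9, 8 and 8 in KO (-2.44 ± 0.30, adjusted p = 1.64e-05). It passed the filter on low counts through WT alone. Igf2os, the antisense RNA at Igf2, had 54, 38 and 36 read pairs in WT against 13, 12 and 10 in KO (-1.65 ± 0.32, adjusted p = 0.000815). On the other side of H19, the muscle troponin gene Tnnt3 (-1.50 ± 0.24), Prr33 (-1.21 ± 0.27) and Lsp1, which makes a leukocyte actin-binding protein (-1.0 ± 0.07), fell as well. The mitochondrial ribosomal gene Mrpl23, which lies between Tnnt3 and H19, rose (0.39 ± 0.09), as did the lysosomal protease gene Ctsd (0.30 ± 0.07). These neighbours, other than the nearest one, were named after their values were seen.

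The genes whose log2 CPM (counts scaled to a fixed library total) followed H19 most closely over the 6 libraries were Pcyt1b, an enzyme of phosphatidylcholine synthesis, and Chil1, a chitinase-like secreted protein, each with a Pearson r of 1.00. Chil1 had 3564, 3835 and 4376 read pairs in WT and 30, 44 and 34 in KO, and Pcyt1b had 854, 871 and 973 against 311, 322 and 299. All 6 points of such a correlation share the split between the genotypes, and 266 genes had an r of at least 0.99 with H19.

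**Figure D2:**
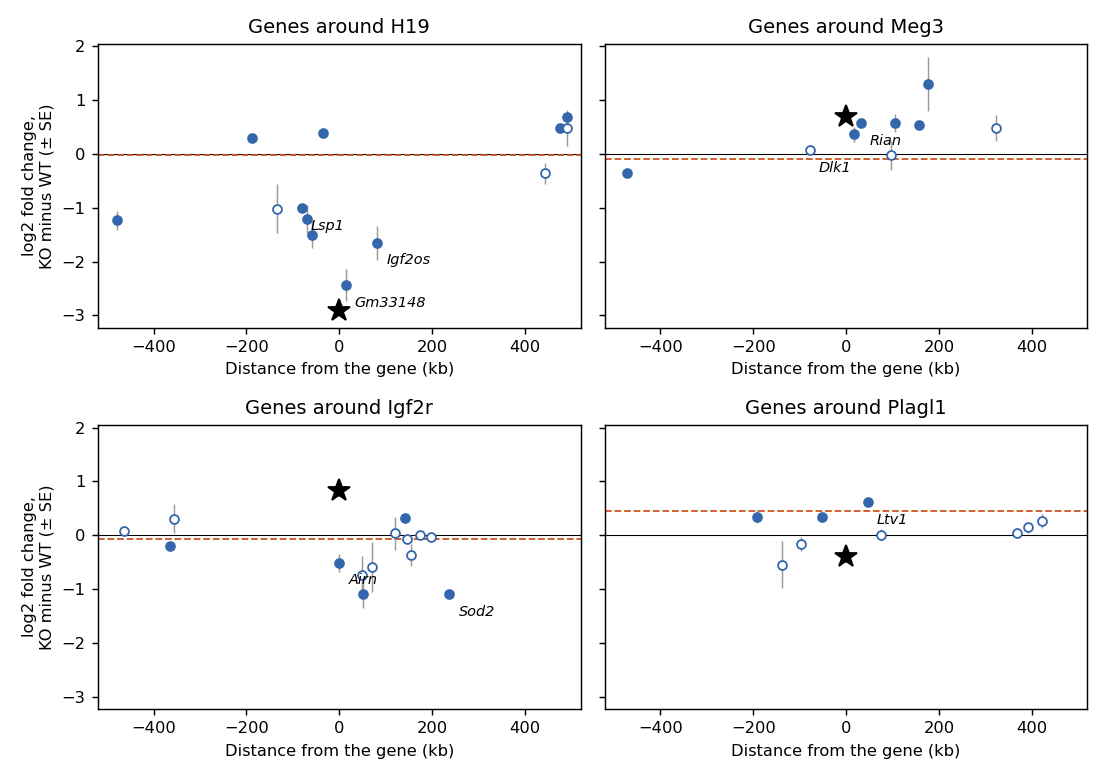
Log2 fold change, KO minus WT, with its SE, of the genes tested within 500 kb of H19, Meg3, Igf2r and Plagl1, against distance from that gene in kb. The star is the named gene, filled circles passed the test, open circles did not, and the dashed line is the median of the chromosome. Around H19 several near genes fell with it, and around Meg3 Rian and Mirg rose while Dlk1 and Gm37899 did not pass.

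Dlk1 and Meg3 mark the imprinted cluster on chromosome 12. Dlk1 makes a membrane protein of the Notch ligand family that holds back the maturation of precursor cells and is read from the paternal copy. Meg3, Rian and Mirg are noncoding RNAs read from the maternal copy, and Rian and Mirg host snoRNAs and miRNAs. Dlk1 (ENSMUSG00000040856, chr12:109452823-109463336, plus strand) had 106120, 104250 and 122056 read pairs in WT and 101280, 106918 and 91842 in KO. The groups overlapped after scaling, at 955 ± 20.1 FPKM in WT and 1005 ± 49.0 in KO (log2 fold change 0.07 ± 0.05, edgeR adjusted p = 0.265). Meg3 (ENSMUSG00000021268, chr12:109541001-109571726, plus strand) had 10335, 9094 and 10888 read pairs in WT and 14584, 12920 and 14293 in KO. Each KO library lay above each WT library, and the rise was 1.61-fold (0.68 ± 0.06, adjusted p = 1.51e-06). The log2 ratio of Meg3 to Dlk1 read pairs needs no scaling for library depth. It was -3.36, -3.52 and -3.49 in WT and -2.80, -3.05 and -2.68 in KO. Meg3 has 18089 exonic bases and Dlk1 5657, so an effect of gene length on the counts need not cancel in the ratio. KO replicate 2 lay nearest to WT. The mean ratio was higher by 0.612 in KO, and the groups did not overlap (exact permutation test, two-sided, p = 0.1, which no comparison of 3 against 3 libraries can go below).

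The noncoding RNAs Rian and Mirg rose as Meg3 did. Rian had 6018, 6247 and 6895 read pairs in WT and 8382, 8144 and 8057 in KO, a 1.49-fold rise (0.58 ± 0.05, adjusted p = 8.72e-07). Mirg had 986, 998 and 1107 against 1230, 1432 and 1182, a 1.45-fold rise (0.53 ± 0.07, adjusted p = 3.20e-05). Rtl1, a paternally expressed gene derived from a retrotransposon, had 136, 117 and 121 against 137, 143 and 134 and passed the test (0.36 ± 0.13, adjusted p = 0.0382). Maternal Rian-side transcripts run antisense to Rtl1, and no strand option appears in the recorded counting command, so reads of the pair cannot be told apart. Of the 9 genes tested within 500 kb of Meg3, 5 rose and 1 fell, with a median of 0.49, against a median of -0.0981 on chromosome 12. The gene that fell was Begain (-0.36 ± 0.08, adjusted p = 0.00156). Gm37899, a predicted gene between Rian and Mirg, had 53, 61 and 47 read pairs in WT and 43, 33 and 60 in KO and did not pass (-0.03 ± 0.26, adjusted p = 0.943), nor did Dlk1 and Gm3379. Begain, Gm37899 and Gm3379 were named after their values were seen.

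The promoters of Meg3 and Peg3 are shown because both genes rose and both windows hold the cAMP response element TGACGTCA, and those of Igf2r and Plagl1 because both hold the E-box CACGTG. Meg3 has 2 annotated windows, and the upstream one is shown. Each run covers 250 bases before to 50 after the annotated start (RefSeq, GRCm38.p6). Capitals mark the 5 motifs searched on both strands, which were this response element, the E-box, and the TATA, GC and CCAAT boxes spelled out after the sequences. These windows are chr12:109540746-109541045 on the plus strand, chr7:6730370-6730669 on the minus strand, chr17:12769657-12769956 on the minus strand and chr10:13090582-13090881 on the plus strand.
Meg3: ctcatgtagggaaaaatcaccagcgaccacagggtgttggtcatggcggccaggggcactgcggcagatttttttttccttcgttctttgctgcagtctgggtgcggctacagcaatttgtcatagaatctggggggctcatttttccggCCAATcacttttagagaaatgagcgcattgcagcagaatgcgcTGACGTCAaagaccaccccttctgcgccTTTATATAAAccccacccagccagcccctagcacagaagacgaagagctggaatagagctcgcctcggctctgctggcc
Peg3: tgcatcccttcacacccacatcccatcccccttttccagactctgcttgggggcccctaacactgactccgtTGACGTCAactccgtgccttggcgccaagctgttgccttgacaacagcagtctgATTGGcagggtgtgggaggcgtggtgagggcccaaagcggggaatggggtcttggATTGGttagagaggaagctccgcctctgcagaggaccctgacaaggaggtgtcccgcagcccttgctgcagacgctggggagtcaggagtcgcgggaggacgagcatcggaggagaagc
Igf2r: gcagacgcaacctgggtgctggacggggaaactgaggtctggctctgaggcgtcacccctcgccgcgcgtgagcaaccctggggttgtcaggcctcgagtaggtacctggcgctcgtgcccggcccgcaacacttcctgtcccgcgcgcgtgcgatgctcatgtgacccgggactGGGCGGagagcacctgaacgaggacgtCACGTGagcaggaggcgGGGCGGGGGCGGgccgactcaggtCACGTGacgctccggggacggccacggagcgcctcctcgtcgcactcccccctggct
Plagl1: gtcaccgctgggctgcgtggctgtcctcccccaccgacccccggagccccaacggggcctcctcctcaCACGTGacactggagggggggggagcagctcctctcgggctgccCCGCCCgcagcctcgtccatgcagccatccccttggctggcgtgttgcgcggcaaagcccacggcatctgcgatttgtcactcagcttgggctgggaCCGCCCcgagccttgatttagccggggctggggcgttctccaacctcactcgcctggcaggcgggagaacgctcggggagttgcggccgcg
The response element lies 57 bases before the start of Meg3 and 178 bases before that of Peg3. The 8 members with an annotated promoter have 15 such windows. The response element is found in 2 of the 15 and in 1.79% of the 32851 windows of all genes. The windows of Igf2r and Mest, which also rose, do not hold it. The TATA box, searched as TATAAA, was found in 1 of the 15, that of Meg3 shown here, and in 13.6% of all windows. The E-box occurs at 2 places in the Igf2r window and at 1 in that of Plagl1, and thus in 2 of the 15 and in 7.15% of all windows, and these genes moved in opposite directions. The GC box, searched as GGGCGG, was found in 8 of the 15, from 5 members, and in 35.7% of all windows. The CCAAT box was found in 3 of the 15 and in 37.4%. The windows hold 13 CpG dinucleotides for Meg3, 13 for Peg3, 34 for Igf2r and 26 for Plagl1, and the median over all windows is 7. A match describes the letters and is not evidence of binding.

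Igf2r and Grb10 are maternally expressed and restrain growth. Igf2r makes the receptor that carries IGF2 and lysosomal enzymes to the lysosome, and Grb10 makes an adaptor that dampens signalling from the insulin and IGF1 receptors. Igf2r (ENSMUSG00000023830, chr17:12682406-12769664, minus strand) had 3995, 3417 and 3966 read pairs in WT and 6135, 4936 and 6125 in KO. All KO libraries lay above all WT libraries, and KO replicate 2 was the lowest of the 3. The rise was 1.76-fold (0.82 ± 0.09, edgeR adjusted p = 4.89e-06), and without KO replicate 2 the log2 fold change was 0.93. Igf2r has 9308 exonic bases and is among the long genes that were low in that library. Airn, the paternally expressed noncoding RNA that starts inside Igf2r and runs against it, fell instead, with 215, 165 and 211 read pairs in WT and 95, 118 and 142 in KO (-0.51 ± 0.16, adjusted p = 0.0186). Since no strand option was set, read pairs of Airn inside Igf2r cannot be told from unspliced Igf2r RNA. Of the 14 genes tested within 500 kb of Igf2r, 1 rose and 4 fell, with a median of -0.13 beside -0.0630 on chromosome 17. Sod2, the mitochondrial superoxide dismutase gene 237 kb away, was among those that fell and was named after its value was seen (-1.09 ± 0.06, adjusted p = 6.89e-09).

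Grb10 (ENSMUSG00000020176, chr11:11930508-12038683, minus strand) had 20292, 19740 and 21872 read pairs in WT and 14119, 13262 and 14591 in KO. Its level went from 111 ± 1.61 to 87.7 ± 6.60 FPKM without overlap, a 1.27-fold fall (-0.34 ± 0.06, adjusted p = 0.000283). KO replicate 2 was the lowest KO library at 81.4 FPKM, and without it the log2 fold change was -0.29. Of 5 genes tested within 500 kb, 3 fell and the other 2 did not pass, with a median of -0.63, and the nearest called one was Fignl1, a DNA repair ATPase 122 kb away (-0.23 ± 0.07, adjusted p = 0.00943). The median of chromosome 11 was 0.0391.

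Peg3, Plagl1 and Mest are paternally expressed. Peg3 and Plagl1 make zinc finger proteins that bind DNA, and Mest makes a protein with a hydrolase fold found in the mesoderm of the embryo. Peg3 (ENSMUSG00000002265, chr7:6703892-6730431, minus strand) had 3693, 3145 and 3622 read pairs in WT and 5212, 3764 and 4933 in KO. The groups did not overlap after scaling, and KO replicate 2 was again the lowest KO library, 15.4 FPKM against 21.5 and 21.3. Peg3 rose 1.55-fold (0.63 ± 0.10, edgeR adjusted p = 0.000209), and by 0.77 without KO replicate 2. Of the 11 other genes tested within 500 kb, 3 fell and 8 did not pass. Among the latter, Usp29, the paternally expressed gene that shares its promoter region, had 21, 17 and 43 read pairs in WT and 51, 41 and 29 in KO (0.80 ± 0.33, adjusted p = 0.0558).

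Plagl1 (ENSMUSG00000019817, chr10:13060504-13131694, plus strand) had 1653, 1677 and 1622 read pairs in WT and 1201, 912 and 1120 in KO. The fall was 1.32-fold (-0.40 ± 0.09, adjusted p = 0.00311), from 10.3 ± 0.828 to 7.86 ± 1.17 FPKM, without overlap. KO replicate 2 was the lowest KO library, 6.51 FPKM against 8.62 and 8.44, and without it the log2 fold change was -0.28. Chromosome 10 as a whole moved the other way. Of its 689 genes tested, 455 rose and 57 fell, and the median log2 fold change was 0.45, while the medians of the other 19 chromosomes with at least 50 genes lay between -0.209 and 0.161. Set against the median of its chromosome, Plagl1 was lower by 0.843 on the log2 scale (KO minus WT, -0.843). Its close neighbour Ltv1, a factor of ribosome assembly 46.4 kb away, had 539, 630 and 635 read pairs in WT and 783, 836 and 765 in KO (0.62 ± 0.08, adjusted p = 1.90e-05). Of the 9 genes tested within 500 kb, 3 rose and 6 did not pass, with a median of 0.145. Over the 19 genes tested within 3 Mb the median was 0.217. Both local medians lay below that of the chromosome, and nearer to the value of Plagl1.

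Mest (ENSMUSG00000051855, chr6:30723547-30748465, plus strand) was close to silent in WT, with 4, 3 and 20 read pairs, and had 29, 23 and 49 in KO. The groups did not overlap after scaling, but WT replicate 3 lay near the KO range. The log2 fold change was 2.13 ± 0.52 (adjusted p = 0.00422) with all libraries and 3.39 without WT replicate 3. Mest shares 23.1% of its exonic bases with Copg2, which is read from the other strand, and pairs there were not counted. Copg2 itself had 1417, 1439 and 1659 read pairs in WT and 1285, 1377 and 1274 in KO (0.02 ± 0.06, adjusted p = 0.760). The nearest called gene was Tmem209, 214 kb away, whose groups overlapped (-0.20 ± 0.08, adjusted p = 0.0476). The genes most like Mest over the 6 libraries were Rsad1 and Tmem42, each with a Pearson r of 0.99, and their log2 fold changes were 0.16 ± 0.07 and 0.64 ± 0.24. Cdkn1c (ENSMUSG00000037664, chr7:143458339-143461050, minus strand), which makes the cyclin-dependent kinase inhibitor p57, had 0 read pairs in all 6 libraries, which allows a level of up to 0.0867 FPKM at the shallowest depth. This limit covers counting error alone, and 30.7% of its exonic bases are shared with another gene.

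**Figure D3:**
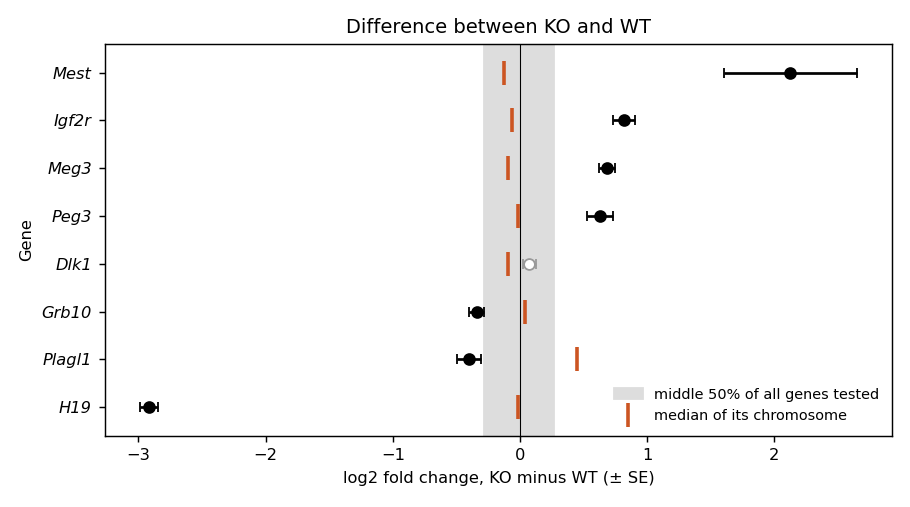
Log2 fold change, KO minus WT, with its SE, of the 8 genes tested, where filled points passed the test and Dlk1, drawn open, did not. The orange mark on each line is the median of the gene's chromosome and the grey band holds the middle 50% of all genes tested. Plagl1 lies below 0 while the median of chromosome 10 lies at 0.45.

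Other imprinted genes were taken from lists. Of 31 paternally expressed genes, 20 could be tested, of which 7 rose and 5 fell, with a median log2 fold change of 0.06. Of 29 maternally expressed genes, 17 could be tested, of which 9 rose and 3 fell, with a median of 0.27. Over all genes tested the median was -0.0029, and 25.1% rose and 23.6% fell. Without the members, the counts were 5 rising and 4 falling of 16 for the paternal list (median -0.02) and 7 rising and 1 falling of 13 for the maternal list (median 0.27). The largest rise was that of Asb4, which makes a subunit of ubiquitin ligases. Asb4 had 0, 1 and 4 read pairs in WT and 299, 280 and 251 in KO. Asb4 thus had a ratio of summed reads, scaled for library size, of 193, with a 95% exact counting interval from 82.5 to 597. It passed the filter on low counts through its KO libraries alone, and 4 of its 5 WT reads lay in WT replicate 3, without which the fitted log2 fold change went from 7.48 to 8.94. Among the paternally expressed genes, the noncoding Peg13 had 231, 205 and 233 read pairs in WT and 586, 514 and 553 in KO, a 2.88-fold rise (1.52 ± 0.09, adjusted p = 1.61e-08). Zrsr1, a splicing factor gene made by retrotransposition, rose 2.30-fold (1.2 ± 0.12, adjusted p = 2.60e-06). The amino acid transporter gene Slc38a4 rose 1.45-fold and the MAGE family gene Ndn 1.29-fold. The maternal list also held Tssc4, which rose 1.60-fold (0.68 ± 0.08, adjusted p = 1.54e-05). Kcnq1ot1, the long noncoding RNA of the imprinted domain that holds Cdkn1c, had 403, 393 and 340 read pairs in WT and 192, 177 and 231 in KO (-0.70 ± 0.14, adjusted p = 0.000782) and was named after its values were seen.

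The IGF axis list, without Igf2 and Igf2r, had 18 genes, of which 13 could be tested, 3 rose and 5 fell, with a median of -0.07. For comparison, 25.1% of all genes tested rose and 23.6% fell. Igf1, another growth factor of the family, had 135, 158 and 150 read pairs in WT and 484, 476 and 495 in KO, a 3.82-fold rise (1.93 ± 0.10, edgeR adjusted p = 4.90e-09). Igf1 lies on chromosome 10, whose median was 0.45. Pappa2, a protease that frees IGF from its binding proteins, had 0, 1 and 0 read pairs in WT and 263, 228 and 304 in KO. Pappa2 thus had a ratio of summed reads, scaled for library size, of 926, with a 95% exact counting interval from 166 to 36618. It too passed the filter through KO alone, and its only WT read lay in WT replicate 2. Without that library WT was at 0, and the fitted log2 fold change, which then depends on the prior count, went from 9.37 to 11.16. Igfbp4, an IGF binding protein, rose 3.01-fold, with 38, 33 and 42 read pairs in WT and 103, 105 and 85 in KO. Igf2bp1, an RNA-binding protein named for its binding of Igf2 mRNA, fell 1.29-fold (-0.36 ± 0.07, adjusted p = 0.00116). Without WT replicate 1 or without WT replicate 2, 5 genes of this list passed the test in place of 8.

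Of the 24 genes listed for imprint maintenance and DNA methylation, 22 could be tested. Of these, 13 fell and 9 did not pass, and the median was -0.25. Among all genes tested, 23.6% fell and 48.7% passed in either direction. Among those with a mean count of at least 500, 57.3% passed. Tet3, which oxidizes methylated cytosine, had 2463, 2026 and 2242 read pairs in WT and 1068, 861 and 1014 in KO, a 1.97-fold fall (-0.98 ± 0.09, edgeR adjusted p = 1.45e-06). Dnmt3l, the cofactor of the methyltransferases that set imprints in germ cells, fell 2.07-fold, with 135, 131 and 159 read pairs in WT and 61, 56 and 59 in KO (-1.05 ± 0.15, adjusted p = 7.51e-05). Zfp57, the zinc finger protein that guards methylation at imprinted control regions, fell 1.38-fold (-0.46 ± 0.06, adjusted p = 3.81e-05). Uhrf1, which brings the maintenance methyltransferase to replicating DNA, fell 1.33-fold (-0.41 ± 0.05, adjusted p = 3.45e-05). The files hold no methylation measurement, so the state of any imprinted control region was not measured.

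Of the 14 CDK inhibitors, G1 cyclins and their kinases, 12 could be tested, 8 rose and 1 fell, with a median of 0.34. The shares over all genes tested were 25.1% rising and 23.6% falling. Ccnd1, the cyclin D1 gene, had 1706, 1594 and 1833 read pairs in WT and 3490, 3305 and 3630 in KO, a 2.37-fold rise (1.24 ± 0.06, edgeR adjusted p = 3.60e-09). Its relatives Ccnd2 and Ccnd3 rose 1.70-fold and 1.59-fold. Their kinase Cdk4 rose 1.32-fold (0.40 ± 0.06, adjusted p = 6.02e-05), by about the median of chromosome 10, on which it lies. The gene that fell was Cdkn1a, which makes the inhibitor p21 and belongs to the family of Cdkn1c (-0.22 ± 0.06, adjusted p = 0.00551), named after its value was seen.

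**Figure D4:**
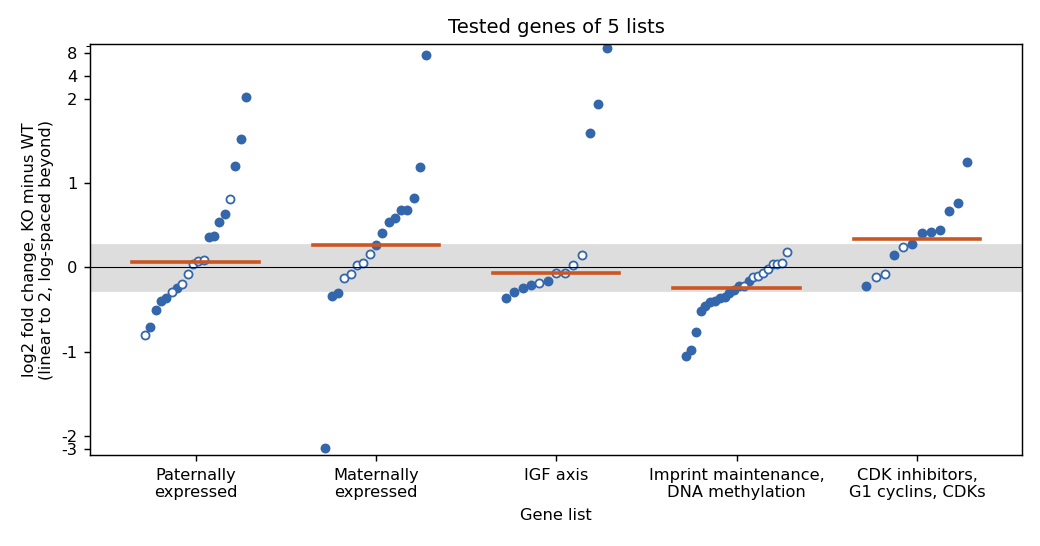
Log2 fold change, KO minus WT, of the tested genes of 5 lists, each in rising order, with filled circles for genes that passed the test, an orange bar at the list's median and a grey band for the middle 50% of all genes tested. The axis is linear up to 2 and log-spaced beyond. The 13 filled circles of the imprint maintenance list lie below 0, and Asb4 and Pappa2 stand far above the rest.

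CircRNAs, made when the end of an exon is joined back to the start of the same or an earlier one, gave a second readout of these loci. In the 12 circRNA-seq libraries, 15 listed circRNAs had both ends inside 3 of the genes, 9 in Igf2r, 5 in Grb10 and 1 in Meg3. The other 7 genes had none listed. Both ends of 14 lay on annotated exon edges, each flanked by AG before the first exon and GT after the last. The libraries held 2189 to 4383 junction reads in the nucleus, 50629 to 81941 in the cytoplasm and 50341 to 58165 in whole cells, so the counts per circRNA were small. The junctions of the most abundant circRNA of each gene, and of the Igf2r circRNAs that start from the same exon 2, are shown because the latter differed in direction. The 20 bases before the junction are in lower case and the 20 after it in capitals (GRCm38, strand of the host gene).
Igf2r exons 2 to 5, chr17:12735967-12748783: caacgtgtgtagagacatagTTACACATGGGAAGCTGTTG
Igf2r exons 2 to 4, chr17:12739287-12748783: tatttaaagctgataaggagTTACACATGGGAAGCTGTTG
Igf2r exons 2 to 7, chr17:12731408-12748783: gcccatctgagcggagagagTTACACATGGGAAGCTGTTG
Grb10 exons 3 to 4, chr11:11967532-11970642: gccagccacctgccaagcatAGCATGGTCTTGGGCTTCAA
Meg3 exons 7 to 8, chr12:109549653-109558320: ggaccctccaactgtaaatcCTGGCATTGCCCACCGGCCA

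In the cytoplasm, 7 of the 8 circRNAs listed from these genes had at least 10 reads and could be tested, and 4 of them, all from Igf2r, passed, 2 higher and 2 lower in KO. Of all 8917 cytoplasmic circRNAs tested, 53.5% passed. The Igf2r circRNA of exons 2 to 5, 497 bases when spliced, had 13 and 14 WT against 1 and 1 KO junction reads (log2 fold change -3.09 ± 0.64, edgeR adjusted p = 0.000810). The circRNA of exons 35 to 36 had 12 and 11 against 3 and 1 (-1.93 ± 0.59, adjusted p = 0.0104). Those of exons 20 to 22 and 8 to 10 rose, with 1 and 0 against 5 and 13 reads (4.36 ± 0.82, adjusted p = 0.000425) and with 1 and 3 against 7 and 5 (2.05 ± 0.65, adjusted p = 0.0137). The Igf2r circRNA of exons 2 to 7, with 9 and 10 WT against 5 and 5 KO reads, did not pass (-0.37 ± 0.47, adjusted p = 0.556). The Grb10 circRNA of exons 3 to 4 had 15 and 17 WT against 7 and 3 KO reads and did not pass (-1.11 ± 0.54, adjusted p = 0.0883). These calls rested on the choice of test and on single libraries. DESeq2 called 0 of the 7, with a smallest adjusted p of 0.0584, and without KO replicate 1 or without KO replicate 2 edgeR called 2.

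In whole cells, 11 circRNAs were listed and 10 tested, and edgeR called 0 of them and 0 of all 8903 circRNAs, with 4 of the 10 and 3405 of the 8903 at an unadjusted p under 0.05. DESeq2 called 0 of the 10 and 8 of the 8903. Here the Igf2r circRNA of exons 2 to 5 had 3 and 3 WT against 5 and 7 KO reads (1.01 ± 0.54, edgeR adjusted p = 0.246). The circRNA of exons 35 to 36 had 7 and 3 against 1 and 0 (-3.0 ± 0.94, adjusted p = 0.0660), lower in KO in both compartments. The Grb10 circRNA of exons 3 to 4 had 6 and 6 WT against 4 and 8 KO reads (0.04 ± 0.52), and the Meg3 circRNA had 7 and 2 against 1 and 2 (-1.47 ± 0.81). A Grb10 circRNA of exons 2 to 11 had 1 and 1 WT against 5 and 5 KO reads (2.23 ± 0.65, adjusted p = 0.0698), while the linear Grb10 RNA fell. Only 5 of the circRNAs were listed in both the cytoplasm and whole cells.

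In the nucleus, 2 circRNAs were listed and neither reached 10 reads. Of the 651 nuclear circRNAs that could be tested, 10.1% passed. The Igf2r circRNA of exons 2 to 7 had 0 and 0 WT against 1 and 3 KO reads. The other, at chr17:12753470-12753694 in an intron of Igf2r, had 1 and 1 WT against 2 and 5 KO reads, and without a strand column it cannot be told from a product of Airn. At this depth a difference was not detectable for either.

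**Figure D5:**
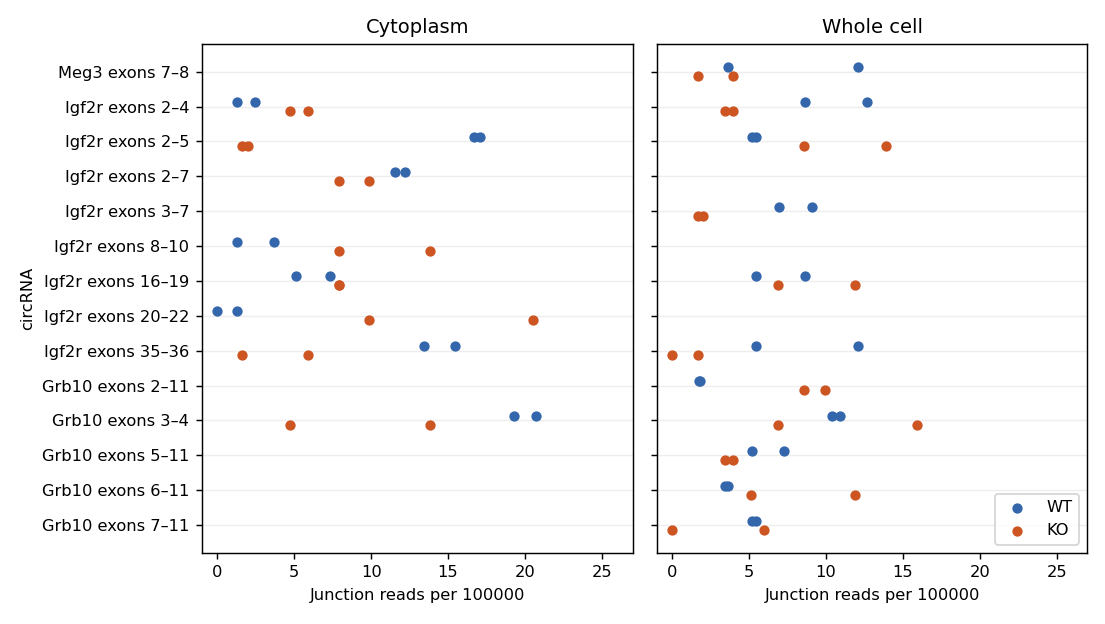
Junction reads per 100000 of each exonic circRNA from Meg3, Igf2r and Grb10 in the cytoplasm (left) and in whole cells (right), with WT libraries in blue and KO libraries in orange. Lines without points were circRNAs not listed in that compartment. The Igf2r circRNA of exons 2 to 5 lies near 17 in the WT cytoplasm and at or below 1.98 in the KO cytoplasm, and in whole cells both KO points lie above both WT points.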

How the data were processed

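The 6 mRNA-seq libraries (3 WT, 3 KO) and the 12 circRNA-seq libraries (2 per genotype and fraction) were grouped by their titles. For mRNA-seq, the authors aligned reads with HISAT2 to GRCm38 and deposited whole-number counts of read pairs per gene from featureCounts (version 2.0.0), without normalization. Pairs that overlap more than 1 gene were dropped, and no strand option was set. For circRNA-seq, the deposited values are counts of junction reads per circRNA from find_circ, with positions and no strand, so circRNAs were assigned to a gene when both ends lay inside it. Any filtering before deposit is not given in the sources used here.

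KO and WT were compared per gene in edgeR (version 4.0.16, R 4.3.3; TMM, filterByExpr, glmQLFit, glmQLFTest) and circRNAs of each fraction likewise when they had at least 10 reads in all, with Benjamini-Hochberg adjustment over the whole table and a threshold of 0.05. Standard errors were derived from the F statistic. FPKM was computed from the counts, the summed exon length and the library total. DESeq2 (version 1.42.0), other scalings, no filter, the replicate number as a block and leaving out each library were alternatives. The test was run first on simulated counts, where it recovered 84.7% of 1.5-fold and 100% of 2-fold changes in mRNA-seq, and 19.5%, 9.18% and 18.7% of 4-fold changes in cytoplasmic, whole cell and nuclear circRNAs. These shares hold for a fixed spread and for 200 changed genes or circRNAs above a minimum mean count. Reads carry no molecular identifiers that the sources name, so intervals and limits cover only counting error.

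The members and the gene lists were chosen with earlier results of these data known, and the lists serve as description. Named genes were the members, Xpo4, up to 4 genes per list with the smallest adjusted p among those with a mean count of at least 50 and no overlap between genotypes, the nearest called neighbour and the 2 most similar genes of members changed at least 2-fold, and the most abundant circRNA of each member. Some others are said to be named after their values were seen. The remaining named genes and circRNAs also lie outside this rule, among them Ltv1, Fignl1, Airn, Rtl1, Usp29, Copg2 and the less abundant circRNAs of Igf2r and Grb10. Likeness was Pearson's r of log2(CPM + 0.5). The promoters of H19 and Cdkn1c were not analysed here. Sequences came from RefSeq tables and the GRCm38 genome, and exons from GENCODE.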

Additional observations from a re-analysis of the deposited data

Results flagged for a closer look

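For the Igf2r circRNAs of exons 2 to 5 and exons 2 to 4, both KO libraries lay on one side of both WT libraries in the cytoplasm and on the other side in whole cells. Of these 4 differences, only that of exons 2 to 5 in the cytoplasm passed the test. In whole cells the edgeR adjusted p was 0.246 for exons 2 to 5 and 0.126 for exons 2 to 4, and in the cytoplasm exons 2 to 4 had too few reads to be tested. For exons 2 to 5, KO minus WT was -15.1 junction reads per 100000 in the cytoplasm and 5.93 in whole cells. For exons 2 to 4, which share the same first exon, it was 3.47 in the cytoplasm, from 1 and 2 WT against 3 and 3 KO reads, and -6.97 in whole cells, from 5 and 7 against 2 and 2. The difference between the compartments was not tested, and each value rests on at most 14 reads per library.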

How the results depend on the processing

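For the 8 members tested, direction and call were the same under all 11 alternatives each, with 7 members called every time. The log2 fold change of H19 lay between -2.95 and -2.89, of Igf2r between 0.75 and 0.93, of Meg3 between 0.64 and 0.75, of Peg3 between 0.56 and 0.77, of Mest between 1.74 and 3.39, of Grb10 between -0.39 and -0.29, of Plagl1 between -0.46 and -0.28 and of Dlk1 between 0.04 and 0.12. Leaving out each library in turn gave 6143 to 7397 genes called, 3226 to 3847 of them higher in KO, 9 to 11 of the paternal list, 11 to 12 of the maternal list, 5 to 9 of the IGF axis list, 11 to 14 of the imprint maintenance list, 8 to 10 of the CDK inhibitor and cyclin list, 31 to 39 neighbours within 500 kb, and a difference of 0.533 to 0.715 in the log2 ratio of Meg3 to Dlk1. Members with a mean of at least 1 FPKM in KO were 7, and 8 by TPM. Same-numbered mRNA-seq libraries did not deviate together (correlations 0.186, 0.109 and -0.209), nor did those of circRNA-seq (-0.0139, -0.0115 and 0.0106), and the numbers were not taken as pairs. With the replicate number as a block, 7 members and 38 neighbours were called, and in whole cells 2054 circRNAs, 1 of them a member circRNA, in place of 0.

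The circRNA counts changed most, and the causes were not tested. In the nucleus, 66 circRNAs were called, against 0 with DESeq2, 0 with no scaling, 40 with no filter, 43 with total junction reads only and 3 to 29 with each library left out. In the cytoplasm, 4768 were called, against 453 with DESeq2, 2353 with no scaling and 1928 to 3553 with each library left out. Of the member circRNAs in the cytoplasm, 4 were called, against 0 with DESeq2, 2 with no scaling and 2 to 3 with each library left out. In whole cells, 0 were called, against 8 with DESeq2, 2003 with total junction reads only and 0 to 508 with each library left out. With total junction reads only, 1 member circRNA was called there, the Igf2r circRNA of exons 35 to 36, as under the block. The cytoplasmic Igf2r circRNA of exons 2 to 5 had an adjusted p of 0.0908 with DESeq2 (log2 fold change -3.11). Nuclear circRNAs are limited by depth, and none of the members' could be tested.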
